A study of Homo sapiens with 4 samples.

Results

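Ribosome biogenesis genes and MYC were followed in the breast cancer cell line T-47D, which is luminal and carries oestrogen and progesterone receptors, after transfection of an artificial microRNA. The set holds 31 genes: MYC, 25 genes of rRNA transcription, processing and ribosome assembly, and 5 other growth genes. Members were chosen by gene symbol, as the exon-level probesets whose annotation names exactly 1 of them. Of the 31 genes, 29 had such a probeset and 28 passed the filter on dim probesets, out of 15719 genes tested in all, and they were read by 432 of 163774 probesets. With symbols updated through RefSeq synonyms, no probeset was assigned to NOP58 or WDR43 alone. A separate search under older symbols, such as NOL5 for NOP58, was not made. The 1 probeset of PPAN lay below the filter, so these 3 genes have no gene-level value.

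The tested cells had received a mimic of p-27-5p at 200 nM (2 arrays), and the control cells a pre-miR negative control (2 arrays), both with the TurboFect reagent. All 4 samples come from 1 cell line, and the labels give neither the dose of the control nor the time between transfection and extraction. The labels do not say whether replicate arrays stem from separate cultures, so the p-values reflect only how far these 4 arrays scatter, and that scatter may be technical. In total RNA from a culture, fewer cells that express a gene and less RNA per cell cannot be told apart.

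MYC is a transcription factor that, paired with MAX, binds the E-box sequence CACGTG and activates genes of cell growth. Ribosome making is among its best known targets: RNA polymerase I transcribes the rRNA precursor in the nucleolus, small nucleolar ribonucleoproteins (snoRNPs) guide its chemical modification, the small-subunit processome and the large-subunit assembly factors cut and fold it, and many of these proteins are encoded by MYC-responsive genes.

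Promoter sequence is independent of the expression values. In the RefSeq windows of build GRCh38.p14 (250 bases before to 50 bases after each start site), 10 of 25 member promoters held at least 1 CACGTG (40%) and 15 held none. The share was 27.8% in 108 promoters of other ribosome biogenesis genes, 8.85% in the 12586 promoters of genes tested on the arrays and 7.27% in all 27303 promoters of the table, with no test made between these sets. CACGTG reads the same on both strands. The looser E-box CANNTG, which includes CACGTG, was in 72.0% of member promoters, 65.7% of those of other ribosome biogenesis genes, 63.8% of those of genes tested on the arrays and 69.2% of all. MYC, NOLC1, NOP58, RRP12, RRS1 and BOP1 were not matched in that table. The 6 windows printed here take at least 1 member from each role in which a promoter held CACGTG, with that motif in capitals. MYBBP1A, a nucleolar protein that binds MYB, is at chr17:4555335-4555634 (minus strand), with CACGTG starting at base 28 counted from the start site. FBL, the methyltransferase of box C/D snoRNPs, is at chr19:39846330-39846629 (minus strand), with CACGTG at 7. ODC1, the enzyme that starts polyamine synthesis, is at chr2:10447963-10448262 (minus strand) and held CACGTG at 2 places, -29 and 6. HSPE1, a mitochondrial co-chaperonin, is at chr2:197500129-197500428 (plus strand), with CACGTG at -22. RRP9, a protein of the U3 snoRNP, is at chr3:51941855-51942154 (minus strand), with CACGTG at -5. PES1, a large-subunit assembly factor, is at chr22:30591861-30592160 (minus strand), with CACGTG at 14.
MYBBP1A: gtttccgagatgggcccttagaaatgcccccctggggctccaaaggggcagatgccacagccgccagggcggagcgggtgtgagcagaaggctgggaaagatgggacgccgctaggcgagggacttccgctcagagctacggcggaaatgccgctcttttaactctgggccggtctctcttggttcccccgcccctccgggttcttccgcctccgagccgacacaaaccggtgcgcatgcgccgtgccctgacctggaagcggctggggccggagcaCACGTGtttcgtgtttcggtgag
FBL: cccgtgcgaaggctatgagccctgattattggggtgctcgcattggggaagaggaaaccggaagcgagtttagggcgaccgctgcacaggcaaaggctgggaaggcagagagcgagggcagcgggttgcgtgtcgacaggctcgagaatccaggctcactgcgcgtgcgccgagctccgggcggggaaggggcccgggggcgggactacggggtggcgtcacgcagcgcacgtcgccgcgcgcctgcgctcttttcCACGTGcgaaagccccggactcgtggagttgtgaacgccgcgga
ODC1: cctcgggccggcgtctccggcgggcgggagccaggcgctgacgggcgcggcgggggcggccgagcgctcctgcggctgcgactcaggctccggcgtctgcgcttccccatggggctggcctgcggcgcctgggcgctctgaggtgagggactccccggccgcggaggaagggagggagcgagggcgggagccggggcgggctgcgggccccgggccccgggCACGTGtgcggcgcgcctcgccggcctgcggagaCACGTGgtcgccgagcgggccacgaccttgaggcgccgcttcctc
HSPE1: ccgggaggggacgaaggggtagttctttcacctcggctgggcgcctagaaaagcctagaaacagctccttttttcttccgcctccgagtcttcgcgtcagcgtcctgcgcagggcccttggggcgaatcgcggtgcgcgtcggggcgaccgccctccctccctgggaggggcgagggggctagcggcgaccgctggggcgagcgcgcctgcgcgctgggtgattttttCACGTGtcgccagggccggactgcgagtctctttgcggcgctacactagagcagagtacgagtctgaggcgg
RRP9: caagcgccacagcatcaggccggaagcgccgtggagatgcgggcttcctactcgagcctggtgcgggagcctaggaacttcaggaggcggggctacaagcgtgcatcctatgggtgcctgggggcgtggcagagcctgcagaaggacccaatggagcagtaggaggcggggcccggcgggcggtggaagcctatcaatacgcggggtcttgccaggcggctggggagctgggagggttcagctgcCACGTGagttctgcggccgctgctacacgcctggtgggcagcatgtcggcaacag
PES1: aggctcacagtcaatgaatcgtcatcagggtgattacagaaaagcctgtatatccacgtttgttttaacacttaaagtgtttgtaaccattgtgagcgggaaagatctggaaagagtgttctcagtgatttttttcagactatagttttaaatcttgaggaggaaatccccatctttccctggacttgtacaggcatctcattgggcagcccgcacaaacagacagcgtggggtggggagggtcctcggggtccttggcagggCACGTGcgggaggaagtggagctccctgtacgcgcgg

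All levels are log2 values of a gene, the mean of its probesets, and every difference is mimic minus control on that log2 scale. SE and 95% intervals are those of limma's moderated fit, and adjusted p is Benjamini-Hochberg over all 15719 genes, with a threshold of 0.05. The 4 arrays correlated with r from 0.966 to 0.985 over all probesets. Luminal identity was visible in all 8 luminal markers, at 8.76 to 12.15 in mimic arrays and 8.94 to 12.50 in control arrays. Of these 8, 6 had differences below 0, beside 49.7% of all genes, and 2 above, with a median of -0.14 and 0 called. The lowest were ESR1, PGR and KRT19, at -0.42, -0.60 and -0.48 (limma adjusted p = 0.139, 0.135 and 0.148). GATA3 and FOXA1 both had -0.02, and EPCAM had 0.15. In 13 measured genes of liver and neurons, taken as background, levels ran from 3.62 to 6.44 in mimic arrays and from 3.69 to 7.06 in control arrays. The 8 measured leukocyte markers (4.46 to 7.63 in mimic, 4.29 to 7.43 in control arrays) and 8 fibroblast markers (4.68 to 7.12 in mimic, 3.96 to 6.90 in control arrays) lay near that range, and all 8 fibroblast markers had differences above 0, with a median of 0.27 and 0 called. Their summed levels were 45.8 and 43.8 in mimic and 45.5 and 43.8 in control arrays for leukocytes, and 43.5 and 42.7 in mimic and 41.1 and 39.2 in control arrays for fibroblasts. The part of other cells in the results was not tested.

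No measured member of the set passed the test. Of the 28 measured, 22 were ribosome biogenesis genes, and the rest were MYC and the other growth genes. Limma called 0 of the 28 at an adjusted p under 0.05, while 2.31% of all genes were called, 0.789% lower and 1.52% higher. At an unadjusted p under 0.05, 3 members passed (MYC higher, NCL and BOP1 lower), beside 20.4% of all genes in either direction. The median difference of the members was 0.04, beside 0.0024 for all genes tested. Of the members 12 lay below 0, beside 49.7% of all genes, and 16 above. For 13 of the 28 members the whole 95% interval lay within 0.5 on either side of 0, and for 27 it lay within 1, the exception being HSPE1. For 25 members the interval spanned 0.

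**Figure D1:**
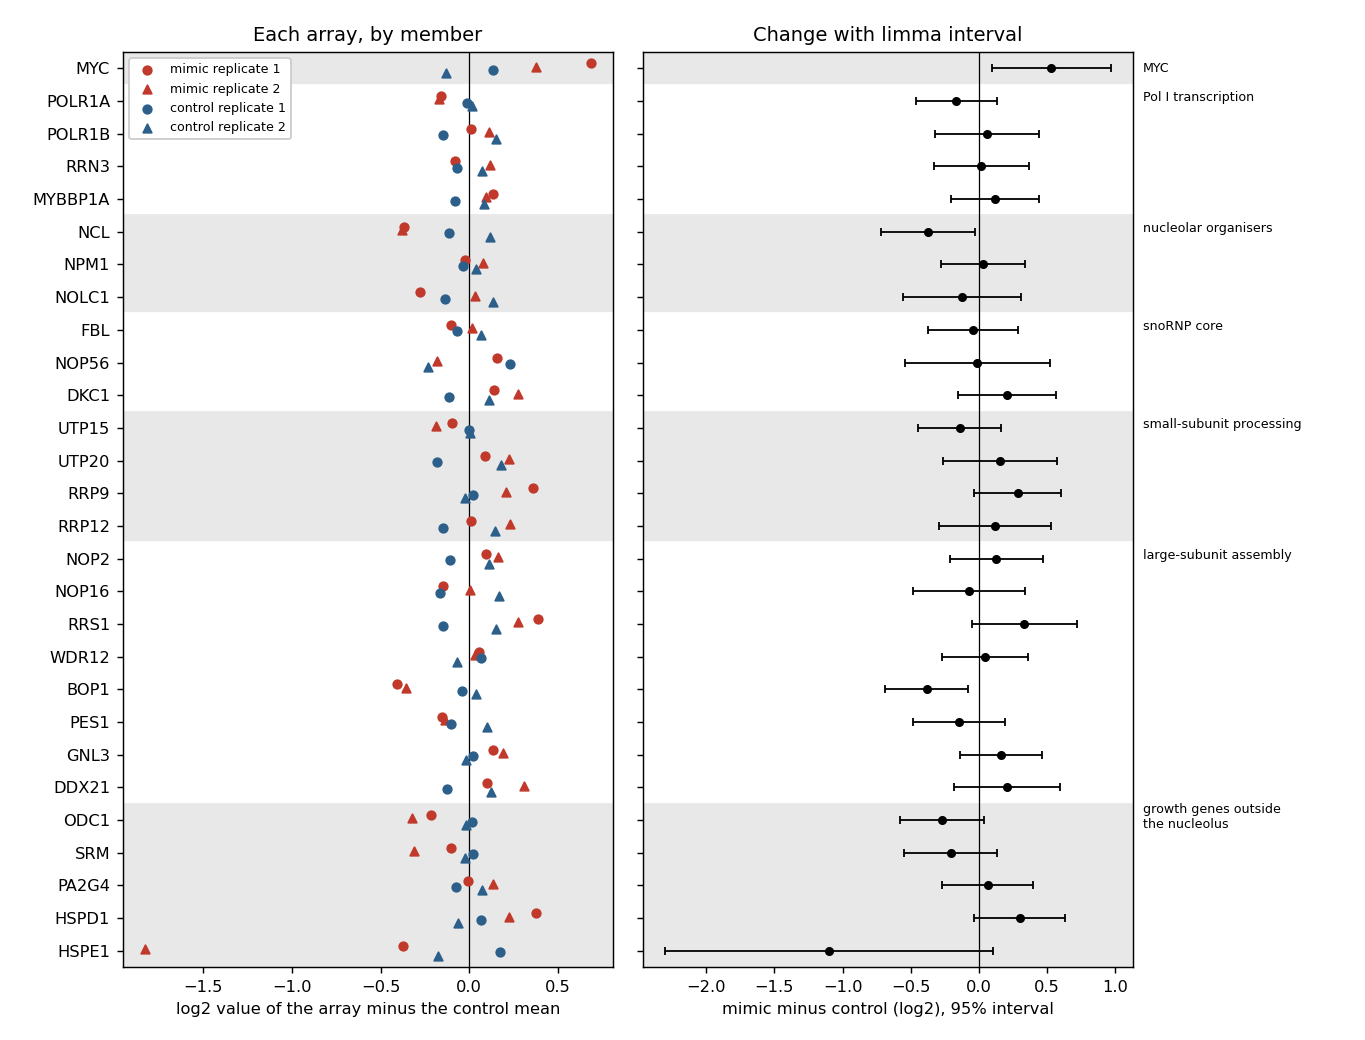
Left: log2 value of each array minus the control mean, for the 28 measured members grouped by role (shaded bands), with mimic arrays in red and control arrays in blue. Right: mimic minus control with limma's 95% interval (n = 2 arrays per group). The band named growth genes outside the nucleolus holds the other growth genes, whose protein location was not measured. Most members sit within 0.5 of 0, MYC lies at 0.53 to the right, and HSPE1 lies at -1.10 with 1 mimic array far from the other.

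MYC was higher in both mimic arrays than in both control arrays, at 8.75 and 8.44 in mimic arrays against 8.20 and 7.93 in control arrays. The groups did not overlap. Its mean was 8.60 ± 0.220 in mimic and 8.07 ± 0.189 in control arrays (SD, n = 2 each). The difference was 0.53 (SE 0.172, 95% interval 0.10 to 0.97), 1.45-fold, with a limma p of 0.0251 unadjusted and 0.177 adjusted, so MYC missed the threshold. Without control replicate 1, which leaves a lone control array, the difference was 0.67. Over the alternatives it ran from 0.24 to 0.69.

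The MYC value rests on 3 probesets, each higher in both mimic arrays, as were 20.7% of all probesets, and their differences were unequal. The brightest of these 3, 3115523, had 10.66 and 10.54 in mimic arrays against 10.33 and 10.40 in control arrays, a difference of 0.24. Probeset 3115524 had 9.54 and 9.11 in mimic arrays against 8.81 and 8.78 in control arrays, a difference of 0.53. The dimmest, 3115525, had 6.06 and 5.67 in mimic arrays against 5.46 and 4.62 in control arrays, a difference of 0.82 at levels that the background genes also reach. Another 3 probesets are annotated to MYC together with MRTL and were not counted for MYC. Their differences were -0.15, -0.03 and 0.24, the last equal at these digits to that of 3115523. Their mean levels over the arrays were 11.46, 10.21 and 10.49, in the same order. The one at -0.15, 3115514, was thus brighter than every probeset of MYC alone, and on it both mimic arrays read lower.

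**Figure D2:**
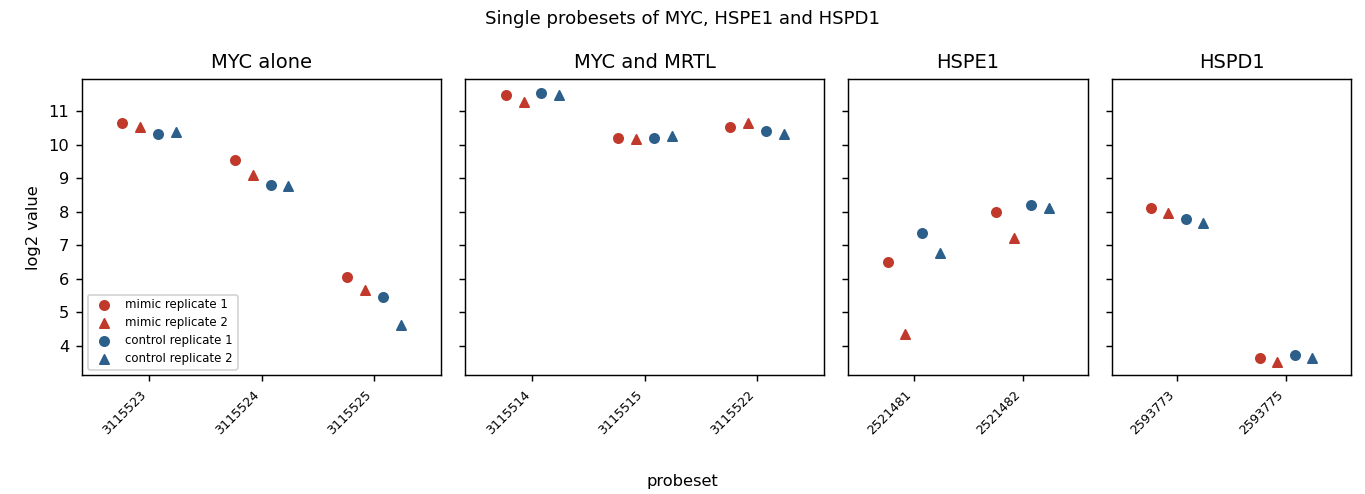
Log2 value of every array (red: mimic, blue: control) on the single probesets of MYC, of MYC with MRTL, of HSPE1 and of HSPD1, with 1 probeset per position on the horizontal axis. The 3 probesets of MYC alone are higher in both mimic arrays, the 3 shared ones differ by -0.15 to 0.24, and mimic replicate 2 reads 4.36 on probeset 2521481 of HSPE1.

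A list of the MYC network held MAX, the MXD, MNT, MGA and MLX family proteins, the MYC paralogs MYCN and MYCL, and proteins that bind MYC or act on its stability (MYCBP, ZBTB17, FBXW7 and USP28). Of its 15 genes 14 were measured, limma called 0 and the median difference was -0.06. At an unadjusted p under 0.05, 2 were lower, beside 12.8% of all genes, and 1 was higher, beside 7.65% of all genes. MXD4, a MAX partner that represses MYC targets, had 7.19 and 7.06 in mimic arrays against 7.58 and 7.59 in control arrays, a difference of -0.46 (adjusted p = 0.132). Its relative MXD3 had 6.36 and 6.53 in mimic arrays against 6.79 and 6.83 in control arrays, a difference of -0.36 (adjusted p = 0.207). On neither gene did the groups overlap. Of 14 measured MYC targets outside the member list, 0 were called and the median difference was -0.02. Unadjusted, 4 of them were lower at a p under 0.05, beside 12.8% of all genes, and 0 higher, beside 7.65%. The DNA repair enzyme APEX1 had -0.44 (adjusted p = 0.171) and the transferrin receptor TFRC -0.40 (adjusted p = 0.158).

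RNA polymerase I genes showed small differences in both directions. POLR1A, the catalytic core subunit, had 7.44 and 7.43 in mimic arrays against 7.58 and 7.62 in control arrays. The groups stood apart by little, with a difference of -0.17 (SE 0.117, 95% interval -0.46 to 0.13, adjusted p = 0.489), and 28 of its 39 probesets were below 0. MYBBP1A, which restrains polymerase I, had 7.83 and 7.79 in mimic arrays against 7.61 and 7.78 in control arrays, a difference of 0.11 (SE 0.128, adjusted p = 0.660). POLR1B, the other core subunit, had 0.06 (95% interval -0.32 to 0.44), and RRN3, the factor that makes polymerase I competent to start, had 0.02 (-0.33 to 0.37). Both overlapped between the groups. The near-zero mean of RRN3 hides 1 probeset, 3681706, with 10.97 and 10.95 in mimic arrays against 10.17 and 10.07 in control arrays (0.84, probeset-level adjusted p = 0.159), beside 3 probesets at -0.39 to -0.19. RRN3 has near-identical pseudogene copies, which the arrays may not separate. Among 11 other measured polymerase I genes, 0 were called and the median was 0.02, with the subunit gene POLR1E at -0.50 (adjusted p = 0.148) and POLR1F at 0.24 (adjusted p = 0.386).

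Of the proteins that organise the nucleolus, nucleolin stood lowest. NCL, an abundant RNA-binding protein of the nucleolus, had 8.54 and 8.53 in mimic arrays against 8.79 and 9.02 in control arrays. The groups did not overlap, and the control arrays differed from each other by more than the mimic arrays did. The difference was -0.37 (SE 0.136, 95% interval -0.72 to -0.03), with a p of 0.038 unadjusted and 0.214 adjusted by limma. On 8 of its 13 probesets both mimic arrays were lower, beside 27.1% of all probesets, but its brightest probeset had 0.23. With the median of its probesets in place of the mean the difference was -0.89 (adjusted p = 0.0824). NPM1, the histone chaperone and shuttle nucleophosmin, had 11.99 and 12.09 in mimic arrays against 11.98 and 12.05 in control arrays. The groups overlapped, with a difference of 0.03 (SE 0.123, 95% interval -0.28 to 0.34, limma adjusted p = 0.920), though NPM1 has many processed pseudogenes that could share signal. NOLC1, which chaperones snoRNPs, had 9.44 and 9.74 in mimic arrays against 9.58 and 9.85 in control arrays, a difference of -0.12 (SE 0.171, adjusted p = 0.733).

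The measured snoRNP core genes had differences of -0.04 to 0.21. FBL had 8.99 and 9.11 in mimic arrays against 9.02 and 9.16 in control arrays, a difference of -0.04 (95% interval -0.37 to 0.28, adjusted p = 0.875). DKC1, the pseudouridine synthase of box H/ACA snoRNPs, had 8.66 and 8.80 in mimic arrays against 8.41 and 8.63 in control arrays, a difference of 0.21 (SE 0.142, adjusted p = 0.475). Its groups did not overlap, by a margin smaller than the distance between arrays of a group. NOP56, a box C/D core protein, had a mean difference of -0.01 made of 2 probesets that went opposite ways, at 0.48 and -0.50. Of 12 other measured snoRNP genes 0 were called, the median was -0.15, and ZNHIT3 and NOP10 had -0.36 and -0.25 (adjusted p = 0.245 and 0.333).

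Of the 4 measured small-subunit processing genes, 3 had differences above 0 and 0 were called. RRP9 had 8.005 and 7.85 in mimic arrays against 7.67 and 7.63 in control arrays. Both mimic arrays were higher, and 12 of its 13 probesets were above 0. The difference was 0.28 (SE 0.126, 95% interval -0.04 to 0.60, limma adjusted p = 0.290). UTP15, a processome protein that also aids rRNA transcription, had 8.71 and 8.63 in mimic arrays against 8.81 and 8.82 in control arrays, a difference of -0.14 (SE 0.120, adjusted p = 0.561). UTP20, a large scaffold read by 67 probesets, had 0.15 (95% interval -0.27 to 0.57), with probesets from -0.63 to 0.79, and RRP12, a factor of small-subunit maturation and export, had 0.12 (-0.29 to 0.53). Among 40 other small-subunit genes, all measured, 0 were called, 29 were above 0 and the median was 0.07. Of these, NOC4L and IMP4, both of the processome, had -0.45 and -0.35 (adjusted p = 0.135 and 0.190).

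Large-subunit assembly genes held both the lowest and the highest of the ribosome biogenesis members. BOP1, which forms the PeBoW complex with PES1 and WDR12, had 7.86 and 7.91 in mimic arrays against 8.23 and 8.31 in control arrays. The groups were well apart relative to the spread within each (SD 0.037 in mimic and 0.055 in control arrays, n = 2 each). The difference was -0.38 (SE 0.120, 95% interval -0.69 to -0.08), with a limma p of 0.0225 unadjusted and 0.169 adjusted, and all 6 probesets were below 0. Its partners had smaller differences. PES1 had 8.13 and 8.15 in mimic arrays against 8.18 and 8.38 in control arrays (-0.14, 95% interval -0.48 to 0.19). WDR12 had 9.05 and 9.03 in mimic arrays against 9.06 and 8.93 in control arrays (0.04, -0.27 to 0.36). The difference between the partners was not tested.

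RRS1, which brings the small rRNA of the large subunit into the particle, had 8.34 and 8.23 in mimic arrays against 7.81 and 8.10 in control arrays. Both mimic arrays were higher, with a difference of 0.33 (SE 0.152, 95% interval -0.05 to 0.72, adjusted p = 0.303). Of its 4 probesets, 3 were above 0 by 0.45 to 0.69 and the dimmest had -0.46. The nucleolar helicase DDX21 had 0.21 (-0.18 to 0.59), with 21 of 22 probesets above 0. GNL3, known as nucleostemin, had 0.16 (-0.14 to 0.46), with 13 of 17 probesets above 0. NOP2, an rRNA methyltransferase, had 0.13 (-0.22 to 0.47) and NOP16 -0.07 (-0.48 to 0.34), and the arrays of both groups overlapped on each. PPAN shares 10 probesets with P2RY11 and their readthrough transcript, which cannot be assigned to either gene. They had differences from -0.17 to 0.60 and a median of 0.11. Of 44 other measured large-subunit genes 0 were called, and the median was -0.0093. At an unadjusted p under 0.05, 6 were higher, beside 7.65% of all genes, and 2 lower, beside 12.8%. TMA16, an assembly factor, had 8.61 and 8.70 in mimic arrays against 7.85 and 7.98 in control arrays, a difference of 0.74 (adjusted p = 0.0586), and NOL9, a kinase of rRNA processing, had -0.54 (adjusted p = 0.0979). In the RNA exosome, which trims rRNA ends, 0 of 14 genes were called and the median was -0.19, with EXOSC7 at 0.41 (adjusted p = 0.149) and EXOSC2 at -0.31 (adjusted p = 0.255).

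**Figure D3:**
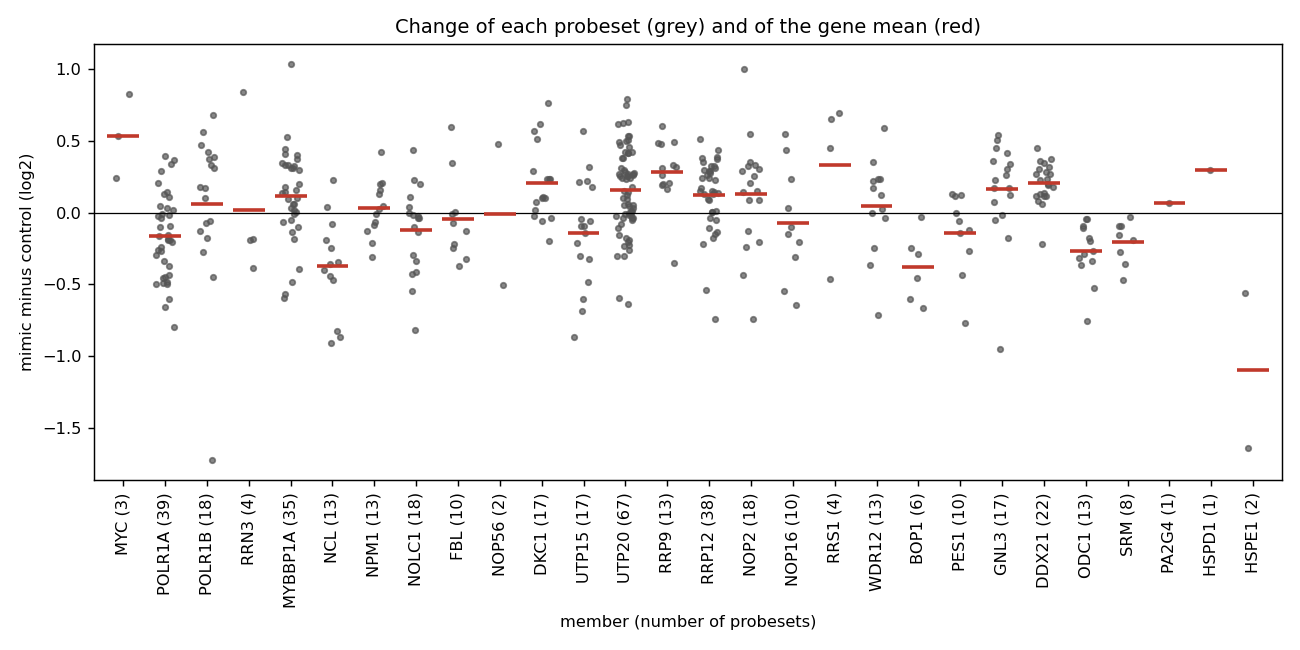
Mimic minus control (log2) of each of the 432 probesets of the 28 measured members (grey points, spread sideways for visibility) and of the gene mean (red bar), with the number of probesets in parentheses. Probesets of BOP1, ODC1 and SRM all lie below 0, those of DDX21 nearly all above, while RRN3 and NOP56 hold probesets on both sides.

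The other growth genes included the largest difference of the set. HSPE1 encodes the co-chaperonin of HSPD1, and together they fold proteins in mitochondria. HSPE1 had 7.25 and 5.79 in mimic arrays against 7.80 and 7.45 in control arrays. Both mimic arrays were lower, yet they differed from each other by more than the means of the groups did. The means were 6.52 ± 1.03 in mimic and 7.62 ± 0.249 in control arrays (SD, n = 2 each), a difference of -1.10 (SE 0.475, 95% interval -2.30 to 0.10, limma adjusted p = 0.277). Mimic replicate 2 set much of it: without mimic replicate 2 the difference was -0.37, and without mimic replicate 1 it was -1.83 and passed (adjusted p = 0.0169, in a range of 0.0169 to 0.553 over the alternatives). On probeset 2521481 the mimic arrays had 6.51 and 4.36 against 7.38 and 6.78 in control arrays, and all but the reading of 7.38 are levels that background genes also reach. HSPD1, the chaperonin itself, was read by 1 probeset past the filter, with 8.11 and 7.96 in mimic arrays against 7.80 and 7.67 in control arrays. That is a difference of 0.30 (SE 0.132, 95% interval -0.03 to 0.63, adjusted p = 0.285), opposite in sign to HSPE1. The start sites of HSPE1 and HSPD1 lie 539 bases apart on opposite strands in the RefSeq table. Both genes have processed pseudogenes, which the arrays may not separate.

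The polyamine genes among the members lay below 0. ODC1 had 10.03 and 9.93 in mimic arrays against 10.27 and 10.23 in control arrays, with all 13 probesets below 0. The groups did not overlap, with a difference of -0.27 (SE 0.122, 95% interval -0.58 to 0.04, limma adjusted p = 0.293). SRM, which makes spermidine, had 9.98 and 9.77 in mimic arrays against 10.11 and 10.06 in control arrays, a difference of -0.21 (adjusted p = 0.447), with all 8 probesets below 0. Among 11 other measured polyamine genes 0 were called and the median difference was -0.16. Unadjusted, 3 were lower at a p under 0.05, beside 12.8% of all genes, and 1 higher, beside 7.65%. SAT1, which acetylates polyamines for export and breakdown, had 8.56 and 8.63 in mimic arrays against 7.89 and 8.12 in control arrays, a difference of 0.59 (adjusted p = 0.104). ARG2, the arginase that supplies ornithine, had 6.14 and 6.38 in mimic arrays against 6.78 and 6.87 in control arrays, a difference of -0.57 (adjusted p = 0.114). PA2G4, a growth regulator that binds ERBB3 and ribosomes, was read by 1 probeset and overlapped between groups, with 0.06 (-0.27 to 0.40). Of 13 other mitochondrial chaperones and proteases 0 were called, the median was -0.06, and the proteases HTRA2 and CLPP had -0.56 and -0.45 (adjusted p = 0.0849 and 0.135).

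Separation of the groups, with or without a call, was counted beside the same count over all genes. The mimic arrays were both under the control arrays in 8 of 28 members, beside 29.5% of all genes, and above them in 7 of 28, beside 20.5% of all genes. In the 121 other ribosome biogenesis genes, pooled over polymerase I, snoRNP, small-subunit, large-subunit and exosome genes, 0 were called and the median was 0.01. Of these 121, 5 were lower at an unadjusted p under 0.05, beside 12.8% of all genes, and 7 were higher, beside 7.65% of all genes. On single probesets, 0 of the 432 member probesets were called, beside 0.918% of all probesets. The mimic arrays were both under the control arrays on 85 member probesets, beside 27.1% of all probesets, and above them on 125, beside 20.7%. Probesets of 1 gene are not independent, and UTP20, POLR1A, RRP12 and MYBBP1A hold 67, 39, 38 and 35 of the 432. These counts therefore weigh a few genes heavily, unlike the counts by gene. By promoter, the 9 measured members with CACGTG had a median of -0.04 (-1.10 to 0.28), and the 14 with a promoter entry but no CACGTG had a median of 0.04 (-0.37 to 0.30). No test was made between them.

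**Figure D4:**
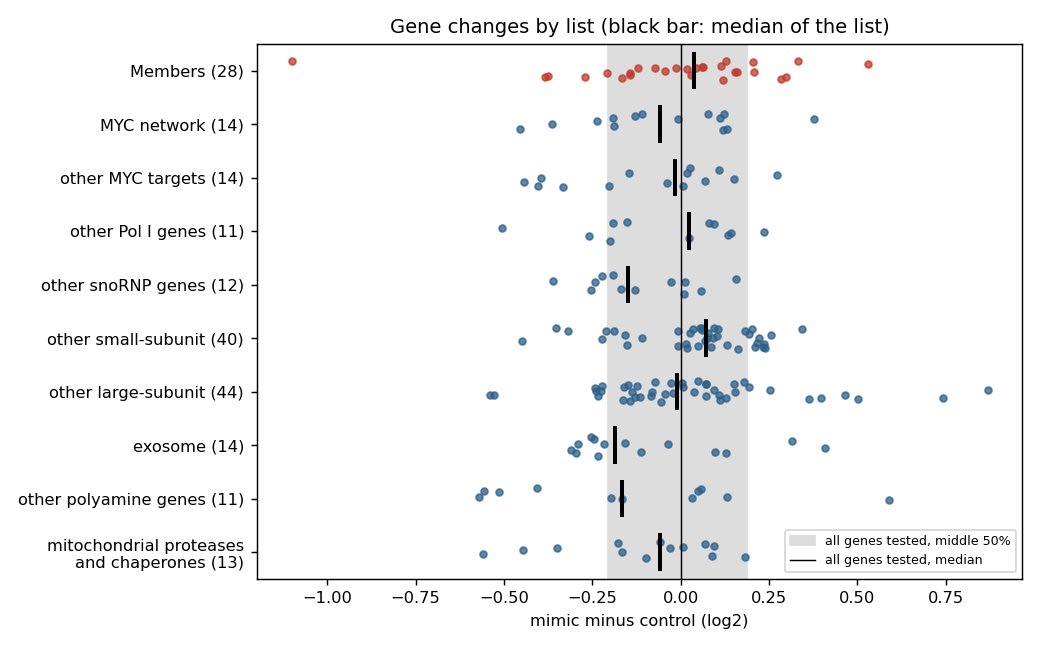
Mimic minus control (log2) of each gene (points) in the members (red) and in lists of related genes (blue), with the number measured in parentheses, the median of each list as a black bar, and the interquartile range of all genes tested (-0.20 to 0.19) as a grey band. The medians lie between -0.19 for the exosome and 0.07 for other small-subunit genes, all inside the grey band.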

How the data were processed

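RNA of 4 samples was measured on exon arrays, 2 per group. The deposited log2 values are 1 per probeset and array (232479 probesets), as the authors made them. Per the submitters' processing notes, Partek, RMA and build hg18 were used, with neither versions nor settings given. Probesets were named through the platform annotation held by GEO, updated through RefSeq synonyms (216780 probesets with 1 symbol, 2335 with several, 13364 unnamed). A gene's value was the mean of its single-symbol probesets averaging at least 4.08, the lower quartile of all values. The comparison used limma version 3.58.1 under R version 4.3.3 (lmFit, eBayes, two-sided, 2 residual degrees of freedom, 5.29 with the prior). The fit was also run on simulated data, whose levels and spread were taken from the real data. Array number limits the precision. Plots used matplotlib 3.10.9. Files were read with pandas 2.3.3 and the R package data.table, version 1.17.8. The members, lists and tests were chosen with earlier results of these data known. Every member was named. MYC, all members of a role with under 4, and the 2 with the smallest p of each other role were given with per-array values. Of each list, the genes past the threshold or otherwise the 2 with the smallest p were named with their difference and adjusted p. Alternatives were a replicate block, 2 normalizations, 2 filters, 2 gene summaries, an intensity trend and leaving out each array. No search for mimic target sites was made.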

Additional observations from a re-analysis of the deposited data

Results flagged for a closer look

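Probesets that name a member together with another gene stood outside the gene-level values, 3 for MYC and 10 for PPAN. On 5 of them both mimic arrays read higher than both control arrays, beside 20.7% of the single-gene probesets tested. Probeset 3115522, annotated to MYC and MRTL, had a difference of 0.24 (log2). Probeset 3115514, with the same annotation, went the other way: both mimic arrays read lower, by -0.15, beside 27.1% of the single-gene probesets tested. Of the 10 probesets shared by PPAN, its readthrough transcript and P2RY11, 3820355 had 0.60, 3820361 had 0.28, 3820363 had 0.40 and 3820364 had 0.22. They cannot be assigned to 1 gene, and no test was made on them.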

How the results depend on the processing

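The precision is limited by 2 arrays per group. Single genes were followed through the alternatives only for some members. These were MYC, all members of a role with under 4, and the 2 with the smallest p of each other role. The other measured members were not followed one by one. In MYC, HSPE1, BOP1, RRS1, RRP9, HSPD1, DKC1, UTP15, POLR1A and MYBBP1A the groups did not overlap, so leaving out 1 array could not turn the sign. The replicate block and the trend leave every difference as it is. Under all 12 alternatives these genes kept the direction, but not the size, and only the remaining alternatives could have turned it. Their ranges were 0.24 (brightest probeset) to 0.69 for MYC, -1.83 to -0.37 for HSPE1, -0.48 to -0.25 for BOP1, 0.18 (without control replicate 1) to 0.69 (brightest) for RRS1, 0.19 to 0.36 for RRP9, 0.098 (no filter) to 0.38 for HSPD1, 0.095 (without control replicate 1) to 0.32 for DKC1, -0.18 to -0.091 for UTP15, -0.30 (median of probesets) to -0.10 for POLR1A and 0.032 (without control replicate 1) to 0.20 for MYBBP1A. All genes called numbered 363, against 1433 without a filter, 122 with the brightest probeset, 1594 with an intensity trend and 172 to 1691 with 1 array left out. Called members numbered 0 under the 8 alternatives that keep all 4 arrays. With 1 array left out, HSPE1 passed without mimic replicate 1 and MYC without control replicate 1. Each of these fits rests on a lone array in 1 group. The count of all genes called moved in them too, so neither is read as a result about the member. Lower at an unadjusted p under 0.05 were 2 members, beside 12.8% of all genes. With the replicate block 4 members were lower, beside 18.9% of all genes, and with the trend 4, beside 16.3%. Both mimic arrays lay below in 5 members with the brightest probeset, beside 21.2% of all genes, against 8 members and 29.5% in the main fit. The members' median was -0.026 (without control replicate 1) to 0.092 with 1 array left out, 0.0080 with the median of probesets, 0.076 with quantile normalization and 0.11 with the brightest. In other biogenesis genes, 5 were lower at that p, and 10 with the replicate block, 8 without a filter, 3 with the median of probesets, 2 with the brightest, 12 with the trend and 2 to 7 with 1 array left out. Their median was -0.015 with the median of probesets, 0.10 with the brightest and -0.059 to 0.060 with 1 array left out. MYC had 0.38 to 0.69 with 1 array left out. Signs turned for NCL (0.23 with the brightest, against -0.89 with the median of probesets), NPM1 (-0.13 with the median of probesets, -0.022 without mimic replicate 2, -0.0069 without control replicate 1, at most 0.079 with 1 array left out and 0.13 with the brightest), NOLC1 (0.031 without mimic replicate 1, 0.013 without control replicate 2, -0.28 at the lowest) and FBL (0.0018 with quantile normalization, 0.016 without mimic replicate 1, 0.024 without control replicate 2, -0.11 without control replicate 1 and -0.38 with the brightest). With 1 array left out, the lone array of a group is assumed to vary like the other group. The cause was not tested. The series calls its samples paired without saying what a number shares. Same-numbered arrays deviated together (r = 0.44 over 15719 genes and 0.70 over the 28 members, 2 pairs), and with the replicate block 498 genes were called, 0 of them members (MYC adjusted p = 0.0627).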
